A study of Homo sapiens with 6 samples.

Results

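The genes described here are 30 nuclear genes of the mitochondrial respiratory chain and of the machinery that builds mitochondria, taken by name from the 1099 genes of the authors' deposited table. They fall into 4 classes: 14 subunits of the respiratory chain and ATP synthase, 9 proteins of the large subunit of the mitochondrial ribosome, 5 TIMM and TOMM proteins that import proteins into mitochondria, and the pair CYCS and HSPE1. All 30 were found, each in 1 row. RNA came from a human cell line labelled A549, a lung adenocarcinoma line of wild-type genotype, kept for 24 h with F/B extract, a combined extract of Flos Sophorae Immaturus and broccoli seed (3 libraries), or with vehicle, DMSO (3 libraries). The dose of the extract is not given in the sources used here. Whether the replicates were separate cultures is not stated, and the p-values therefore cover the variation among 6 libraries, part or all of which may be technical.

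Mitochondria make most of their ATP by oxidative phosphorylation. Complexes I to IV pass electrons to oxygen, complexes I, III and IV pump protons, cytochrome c carries electrons between complexes III and IV, and ATP synthase uses the proton gradient. A few core subunits are encoded in mitochondrial DNA and made on mitochondrial ribosomes. The other subunits, and all proteins of those ribosomes, are encoded in the nucleus and enter through the TOM complex of the outer membrane and the TIM complexes of the inner membrane, after which the chaperonin formed by HSPD1 and its partner HSPE1 folds many of them. In cultured tumour cells the nuclear genes of this system are highly expressed.

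The table holds the 9.74% of 11289 genes with the smallest p-values in the authors' own comparison of the same libraries, so each member is in it because it differed. Counts of members past a threshold therefore describe these rows and are not independent evidence. The label A549 is itself in doubt. The library names begin with AGS, which is also the name of a gastric adenocarcinoma line, and MTAP, which lies in a region A549 is known to have lost, had 48.9 to 60.5 TPM (a level per transcript length and library total) over the 6 libraries. The table held 4 of 16 gastrointestinal epithelial genes, VIL1, TFF1, CDH17 and REG4, with VIL1 at 142 to 214 TPM. All 4 were called lower with extract by edgeR, at log2 fold changes of -0.42, -0.83, -0.43 and -0.78, and their part in the members' decrease was not tested. It also held 1 of 10 fibroblast and endothelial genes, COL1A1, at 10 to 15.8 TPM and called lower at -0.33, and its part was likewise not tested. Of 12 genes associated with A549 and 6 leukocyte genes 0 were in the table, which does not show whether they were expressed. The table's estimated counts summed to 3178678, 3242561 and 3084338 in extract libraries and to 3436544, 4640117 and 3885606 in vehicle libraries, which is not their full depth.

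All 30 genes were lower with extract. Between 74.3% and 88.0% of the vehicle level remained in normalised counts, with a median of 82.1%, so every decrease was less than 1.5-fold. CYCS and HSPE1 were at 75.3% and 75.6%, and the medians of the import proteins, the mitochondrial ribosomal proteins and the respiratory chain were at 82.4%, 82.8% and 81.4%. Normalised counts are the authors' estimated counts, rounded to whole numbers and divided by the library size factors that the deposited fold changes imply. In these the 3 extract libraries lay below the 3 vehicle libraries for 30 of 30 members, against 63.8% of all rows of the table, and edgeR's quasi-likelihood test with adjustment over 11289 genes called 27 of 30 lower (adjusted p under 0.05), against 52.6% of all rows. It called 0 members (0 also at an unadjusted p under 0.05, and 0 with DESeq2 or limma-voom) and 29.0% of all rows higher. The median log2 fold change, extract over vehicle, was -0.28 over the members and -0.22 over all rows.

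The size of these differences depended on the scale. In the deposited TPM values all 30 members were also lower with extract, but the median stood at 88.6% of the vehicle level, and the groups did not overlap for 17 of 30 members, against 44.2% of all rows. limma on log2(TPM + 1) called 0 members and 5.46% of all rows lower, with 15 members at an unadjusted p under 0.05. With edgeR on counts put on the scale that the TPM values imply, 9 of 30 members were called lower, against 19.5% of all rows. The medians of members and of all rows then stood at -0.20 and -0.14, and 36.6% of all calls were lower, against 64.4% with the implied size factors. TMM over the table moved all rows up by 0.15 on the log2 scale. It left 2 members called lower, CYCS and HSPE1, or 6.67% of members against 7.92% of all rows. Of all calls with TMM 18.4% were lower.

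**Figure D1:**
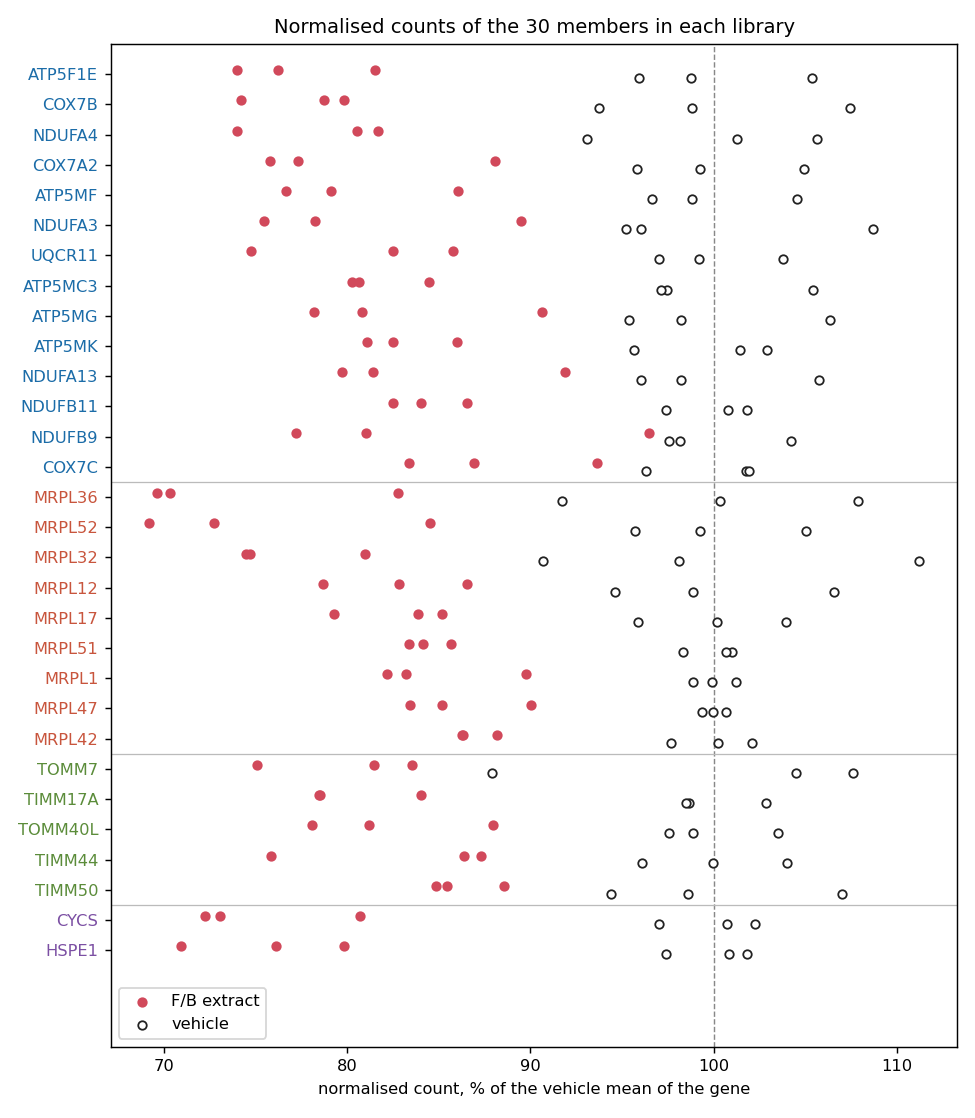
Normalised count of each member in each library, as a percentage of the gene's mean over the vehicle libraries; filled points are the 3 extract libraries and open points the 3 vehicle libraries, with the 4 classes separated by lines. In every row the extract points lie left of the vehicle points, and NDUFB9 and COX7C show the smallest gaps between the groups.

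The promoters of the members were searched for letters bound by regulators of nuclear mitochondrial genes, and for the GC, CCAAT and TATA boxes. RefSeq promoters (GRCh38.p14), 250 bases before to 50 after the start, matched 27 of 30 members, and both strands were searched. The core TGCGCA of the NRF1 motif, a palindrome, was in 10 of 27 members (37.0%), in 14.6% of the promoters of 882 listed genes and in 8.42% of 27305 promoters. The letters CCGGAAG, bound by ETS factors such as GABP, were in 7 members (25.9%), 18.6% of listed genes and 10.7% of all. The letters GATGGCG of the YY1 motif, a shortened form chosen after a longer one had been searched, were in 6 members (22.2%), 7.94% of listed genes and 4.35% of all. The 6 were MRPL36, MRPL52, MRPL32 and MRPL42 of the 9 ribosomal genes and TOMM40L and TIMM50 of the 5 import genes, with 0 of 11 matched respiratory chain genes. In the ribosomal class they included the 3 genes with the lowest log2 fold changes and MRPL42, which has the highest. The result with the longer YY1 form is not given here. The GC box GGGCGG was in 55.6% of members, 65.3% of listed genes and 44.6% of all. For the letters CCAAT these shares were 40.7%, 35.4% and 35.7%. For the TATA box TATAAA they were 3.70%, 7.03% and 11.95%. The GC and TATA boxes were thus less frequent in members than in listed genes. Differences in these shares were not tested for any of the motifs. A match is a description of the letters and not a binding site. Some windows are shown 5′ to 3′ on the gene's strand, with the searched NRF1, ETS and YY1 letters in capitals. MRPL36 and MRPL42 are both ends of the ribosomal range, and MRPL17 has 2 adjacent NRF1 cores. ATP5MK has 3 ETS matches, of which those at -163 and -160 overlap on opposite strands in the stretch CTTCCGGAAG. CYCS is the member with the lowest p, and its window held none of the exact NRF1, ETS and YY1 letters.
MRPL36, chr5:1799788-1800087, minus strand: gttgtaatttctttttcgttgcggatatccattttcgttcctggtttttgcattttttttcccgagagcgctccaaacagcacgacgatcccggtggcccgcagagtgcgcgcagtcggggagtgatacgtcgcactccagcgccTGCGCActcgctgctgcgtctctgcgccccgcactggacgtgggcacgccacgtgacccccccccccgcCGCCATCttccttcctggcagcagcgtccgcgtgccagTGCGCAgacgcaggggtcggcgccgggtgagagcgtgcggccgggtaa
MRPL42, chr12:93467264-93467563, plus strand: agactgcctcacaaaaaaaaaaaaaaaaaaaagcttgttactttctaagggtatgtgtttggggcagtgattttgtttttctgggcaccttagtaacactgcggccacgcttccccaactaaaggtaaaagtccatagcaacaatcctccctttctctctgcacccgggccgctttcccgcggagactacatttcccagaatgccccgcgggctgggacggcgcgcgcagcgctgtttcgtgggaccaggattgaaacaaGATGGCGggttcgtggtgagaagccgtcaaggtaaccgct
MRPL17, chr11:6683291-6683590, minus strand: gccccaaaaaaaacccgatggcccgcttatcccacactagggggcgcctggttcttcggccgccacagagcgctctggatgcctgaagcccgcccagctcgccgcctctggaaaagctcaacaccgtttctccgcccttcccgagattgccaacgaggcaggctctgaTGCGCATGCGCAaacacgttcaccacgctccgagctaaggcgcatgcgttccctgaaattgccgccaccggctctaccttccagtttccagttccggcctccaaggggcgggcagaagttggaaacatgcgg
ATP5MK, chr10:103396426-103396725, minus strand: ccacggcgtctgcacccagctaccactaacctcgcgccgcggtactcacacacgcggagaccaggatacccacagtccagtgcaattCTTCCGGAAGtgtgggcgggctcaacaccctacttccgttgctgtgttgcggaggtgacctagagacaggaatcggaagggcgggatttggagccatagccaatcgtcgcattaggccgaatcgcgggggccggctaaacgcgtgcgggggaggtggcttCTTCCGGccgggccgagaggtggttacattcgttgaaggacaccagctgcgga
CYCS, chr7:25125211-25125510, minus strand: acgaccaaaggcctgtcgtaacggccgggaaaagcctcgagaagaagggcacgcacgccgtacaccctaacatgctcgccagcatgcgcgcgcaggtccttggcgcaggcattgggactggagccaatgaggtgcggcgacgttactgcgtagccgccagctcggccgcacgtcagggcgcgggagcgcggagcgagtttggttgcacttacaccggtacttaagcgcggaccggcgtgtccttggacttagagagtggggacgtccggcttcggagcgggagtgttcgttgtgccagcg

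CYCS, the gene of cytochrome c, which carries electrons in the respiratory chain and starts caspase activation when it leaves mitochondria, had 3072, 2751 and 2783 normalised counts in extract libraries and 3836, 3893 and 3693 in vehicle libraries. The lowest vehicle library was above the highest extract library by more than the range within either group. CYCS (ENSG00000172115, GRCh38 chromosome 7, 25120091 to 25125361, minus strand) averaged 2869 ± 177 with extract and 3807 ± 103 with vehicle (SD, n = 3 each). The log2 fold change was -0.41 with an SE of 0.05 (edgeR adjusted p = 0.00317). In TPM it stood at 81.2, 97.8 and 116 with extract and at 124.9, 143 and 134 with vehicle, or 73.4% of the vehicle level, the lowest share among the members. Spread in TPM was wider: 98.4 ± 17.5 with extract and 134 ± 9.10 with vehicle. GENCODE v29 names 40 pseudogenes after CYCS, so reads could be shared with these copies, although the counts of CYCS were whole numbers in all but 1 library.

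HSPE1, the lid of the mitochondrial chaperonin, had 1549, 1376 and 1477 normalised counts in extract libraries and 1889, 1975 and 1956 in vehicle libraries. Again the gap between the groups was wider than the range within either. HSPE1 (ENSG00000115541, chromosome 2, 197499994 to 197503457, plus strand) averaged 1467 ± 86.7 with extract and 1940 ± 44.9 with vehicle (SD, n = 3 each), which is -0.40 on the log2 scale with an SE of 0.05 (edgeR adjusted p = 0.00386). It is also 1 of the most abundant members, at 434 ± 21.7 TPM with extract and 517 ± 7.42 TPM with vehicle. Its exons overlap those of the readthrough gene HSPE1-MOB4 and, on the other strand, of HSPD1, and 26 pseudogenes are named after it. No source says that reads were counted by strand, so these genes cannot be fully told apart. CYCS and HSPE1 were called lower in 16 of 18 other settings each, the exceptions being limma on log2(TPM + 1), with adjusted p of 0.160 and 0.0976, and on log2(TPM + 0.1), with 0.186 and 0.107. Over all settings the log2 fold change ran from -0.46 to -0.24 for CYCS and from -0.44 to -0.23 for HSPE1.

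The 14 genes of the respiratory chain and ATP synthase were all lower with extract, with log2 fold changes from -0.37 to -0.18. Of these, 11 were called and 3 missed the threshold, beside 52.6% of all rows called lower. The 5 genes of ATP synthase were all called. ATP5F1E, the epsilon subunit in the catalytic part of the enzyme, had 1979, 1921 and 2116 normalised counts in extract libraries and 2490.1, 2735 and 2564 in vehicle libraries. ATP5F1E (ENSG00000124172, chromosome 20, 59025467 to 59032382, minus strand) thus had the lowest log2 fold change of its class, -0.37 (SE 0.05, edgeR adjusted p = 0.00503). In TPM its groups did not overlap either, with 51.0, 50.2 and 58.7 against 64.0, 68.7 and 66.1 in vehicle. ATP5MC3, 1 of the genes for the membrane ring that the proton flow turns, was at -0.29. ATP5MF, a small membrane subunit and the most abundant member in TPM, was at -0.31 (SE 0.06), with 949, 852 and 855 TPM with extract and 1005, 972 and 928 TPM with vehicle. The highest extract library of ATP5MF lay above the lowest vehicle library in TPM, whereas in counts the groups were apart. ATP5MG and ATP5MK, further small membrane subunits, were both at -0.27.

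Of the 4 listed genes of complex IV, cytochrome c oxidase, COX7B, NDUFA4 and COX7A2 were called lower, at -0.37, -0.35 and -0.32. NDUFA4 was named for complex I and is now placed in complex IV. COX7C, which is expressed at 519 ± 19.2 TPM with extract and 539 ± 20.3 TPM with vehicle (SD, n = 3 each), had 2049, 1824 and 1903 normalised counts in extract libraries and 2226, 2230.1 and 2108 in vehicle libraries. Its groups came close to each other, and it missed the threshold at -0.18 (SE 0.05, edgeR adjusted p = 0.0719). UQCR11, a small subunit of complex III, fell by 0.30 on the log2 scale, with 71.2, 69.6 and 70.1 TPM with extract and 78.2, 81.4 and 80.9 TPM with vehicle.

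Complex I, the NADH dehydrogenase, gave the smallest values of the complexes with more than 1 member, with a median of -0.25 against -0.33 for complex IV and -0.29 for ATP synthase. The ranges of the 3 complexes overlapped, and the difference between them was not tested. NDUFA13, also known as GRIM-19, and NDUFB11 were both at -0.25 and were called. NDUFA3 had 704, 615 and 594 normalised counts in extract libraries and 755, 855 and 749 in vehicle libraries, with a log2 fold change of -0.31, an SE of 0.08 and an edgeR adjusted p of 0.0517. NDUFB9 had 1729, 1452 and 1384 in extract libraries and 1749, 1868 and 1760 in vehicle libraries, or -0.24 (SE 0.08, edgeR adjusted p = 0.129). In both genes extract replicate 1 lay near the vehicle libraries and the other two extract libraries lay well below. Without that library the class had 14 genes called, NDUFA3, NDUFB9 and COX7C included, beside 51.9% of all rows called lower. Leaving out any other single library left between 1 and 8 of the 14 called. By the authors' deposited table the adjusted p of NDUFA3 was 0.0289, and those of NDUFB9 and COX7C were 0.0521 and 0.0528. The authors' deposited table gives MRPL1, called lower by edgeR here, an adjusted p of 0.0503. Its significance column marks only 11 of all 1099 rows, and 0 of the 30 members.

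The 9 mitochondrial ribosomal proteins, all of the large subunit, fell with log2 fold changes from -0.43 to -0.20. They spread more widely than the other classes, with an SD over genes of 0.087 against 0.053 in the respiratory chain and 0.043 among the import proteins. MRPL36 had 336, 283 and 286 normalised counts in extract libraries and 372, 438 and 407 in vehicle libraries. With the lowest counts of all members, MRPL36 (ENSG00000171421, chromosome 5, 1798386 to 1801366, minus strand) also had the lowest log2 fold change, -0.43 (SE 0.10, edgeR adjusted p = 0.0270). MRPL52, the most abundant of the class in TPM, had 836, 879 and 1021 normalised counts with extract and 1269, 1199 and 1156 with vehicle. Its TPM values of 158, 167 and 199.7 with extract and 235, 203 and 206 with vehicle came within a few TPM of each other without overlapping, and its log2 fold change was -0.40 (SE 0.08, edgeR adjusted p = 0.0136).

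MRPL32 came next at -0.38, followed by MRPL12 at -0.28, a protein of the ribosome's stalk that also binds mitochondrial RNA polymerase. MRPL17 was at -0.27, MRPL51 at -0.25, MRPL1 at -0.23 and MRPL47 at -0.21. MRPL42 had the smallest decrease, with 1444, 1414 and 1414 normalised counts in extract libraries and 1642, 1672 and 1599.9 in vehicle libraries. The small spread of MRPL42 in both groups put it past the threshold at -0.20 (SE 0.04, edgeR adjusted p = 0.0230). In TPM 8 of these 9 genes did not overlap between groups, beside 44.2% of all rows that were lower without overlap. The exception was MRPL1 with 66.5, 67.8 and 77.2 with extract and 77.0, 76.2 and 77.5 with vehicle. With edgeR on the TPM scale 0 of the 9 and 19.5% of all rows were called lower, while 8 of the 9 had an unadjusted p under 0.05. Without extract replicate 2 or vehicle replicate 2 alone, 0 of the 9 were called and 9 had an unadjusted p under 0.05. Of all rows 16.3% and 11.3% were called lower in these fits.

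All 5 import genes fell, by between 0.21 and 0.32 on the log2 scale. TOMM7, a small subunit that tunes the assembly of the TOM complex, had 807, 726 and 787 normalised counts in extract libraries and 1039, 1009.6 and 849 in vehicle libraries. Vehicle replicate 3 stood near the extract libraries, and the SE was wide for the class (log2 fold change -0.32, SE 0.08, edgeR adjusted p = 0.0416). TOMM7 is the most abundant gene of the class, at 392 ± 16.7 TPM with extract and 432 ± 55.4 TPM with vehicle (SD, n = 3 each). TIMM17A, a channel subunit of the TIM23 complex, was named after its values were seen, as the only import gene called without each library in turn. It had 1431, 1532 and 1432 normalised counts with extract and 1799.8, 1796 and 1876 with vehicle, or -0.32 (SE 0.05, edgeR adjusted p = 0.00607). TOMM40L, related to the TOM channel, was at -0.28, and TIMM44, which docks the import motor, was at -0.27. TIMM50, the receptor of the TIM23 complex, had 2263, 2169 and 2184 normalised counts with extract and 2412, 2734 and 2521 with vehicle, or -0.21 (SE 0.05, edgeR adjusted p = 0.0378). In TPM only TIMM17A of this class did not overlap between groups, beside 44.2% of all rows that were lower without overlap.

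**Figure D2:**
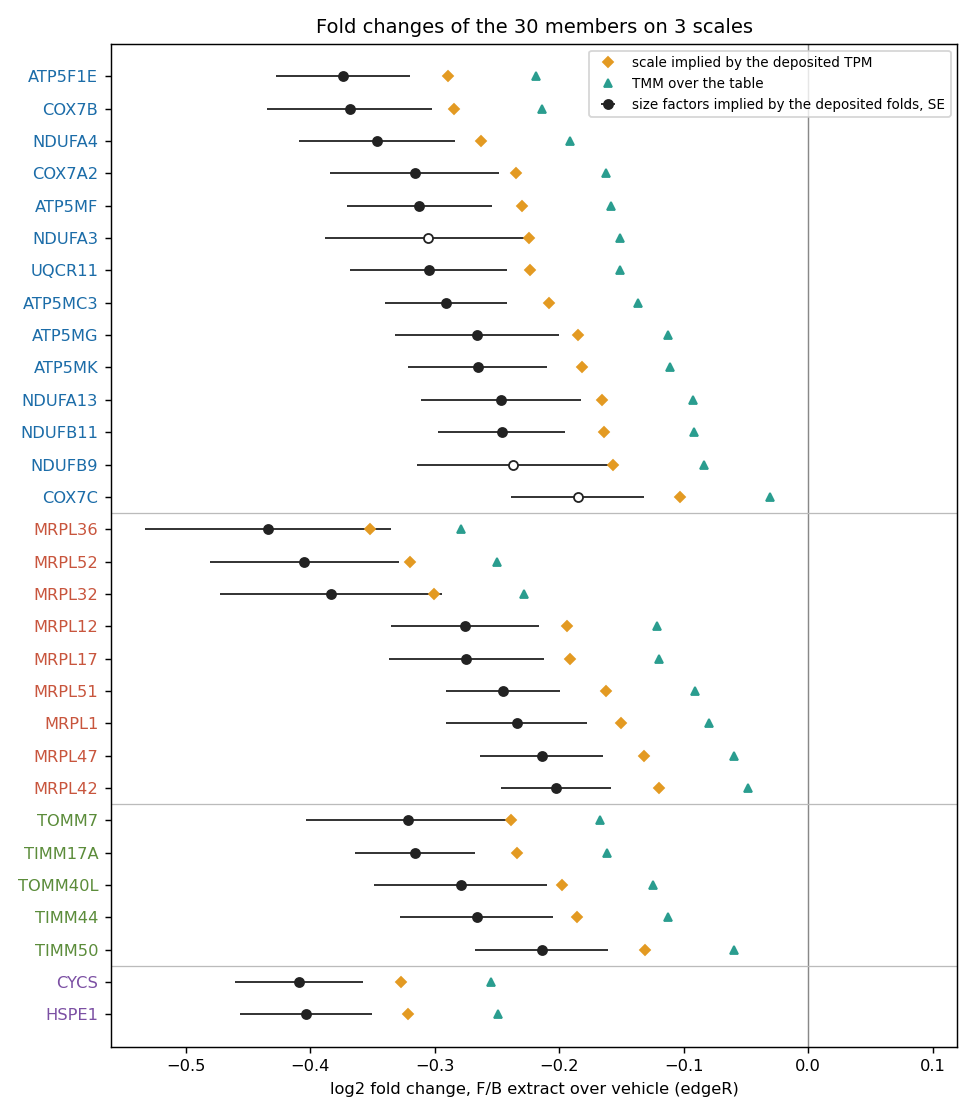
Log2 fold change of each member, extract over vehicle, by edgeR: circles with SE bars use the size factors implied by the deposited fold changes (open circles missed the threshold), diamonds the scale implied by the deposited TPM, and triangles TMM over the table. All values lie below 0, COX7C comes closest to it on each scale, and changing the scale moves all genes by about the same amount.

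The 4 classes could not be separated by size of change. Their log2 fold changes overlapped, except that no import gene and no gene of the respiratory chain was as low as CYCS and HSPE1. MRPL36 lay below that pair and MRPL52 between its values. Extract replicate 1 was the highest of the 3 extract libraries for 20 of 30 members, beside 43.0% of all rows, and vehicle replicate 2 the highest of the vehicle libraries for 23 of 30, beside 36.2% of all rows. The same libraries led over the whole table, and the difference in share was not tested. Medians over the members were 85.4%, 80.9% and 80.2% of the vehicle mean in extract libraries and 97.5%, 103.9% and 98.8% in vehicle libraries. Leaving out 1 library changed the calls: 4 members were called without vehicle replicate 2, 4 without extract replicate 2, 11 without vehicle replicate 3 and 17 without extract replicate 3. These were 13.3%, 13.3%, 36.7% and 56.7% of members. Calls over all rows fell too, to 11.3%, 16.3%, 20.4% and 39.4% called lower in the same fits. ATP5F1E, TIMM17A, CYCS and HSPE1 were called in each of these fits, and in those without extract replicate 1 or vehicle replicate 1.

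Levels spanned a wide range in TPM, from ATP5MF at 885 ± 55.0 TPM with extract and 968 ± 38.9 TPM with vehicle to TOMM40L at 17.9 ± 2.00 TPM with extract and 20.3 ± 1.90 TPM with vehicle (SD, n = 3 each). The top of the order in vehicle libraries was ATP5MF, COX7C, HSPE1, NDUFA13, ATP5MK, COX7A2 and TOMM7, and the bottom was NDUFA4, COX7B, MRPL17 and TOMM40L. The order was nearly the same with extract, where HSPE1 came after ATP5MK. Many neighbours were not distinct: in the order of extract libraries 18 of 29 neighbouring pairs, and in that of vehicle libraries 15 of 29, had overlapping values. The 14 respiratory chain genes summed to 4050 ± 182 TPM with extract and 4417 ± 98.5 TPM with vehicle, and the 9 ribosomal genes to 923 ± 19.9 TPM with extract and 1060 ± 1.42 TPM with vehicle. The import genes summed to 804 ± 26.6 TPM with extract and 899.8 ± 32.8 TPM with vehicle, and CYCS with HSPE1 to 533 ± 24.6 TPM with extract and 652 ± 4.79 TPM with vehicle. The sums stood at 91.7%, 87.1%, 89.3% and 81.8% of the vehicle level in this order.

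**Figure D3:**
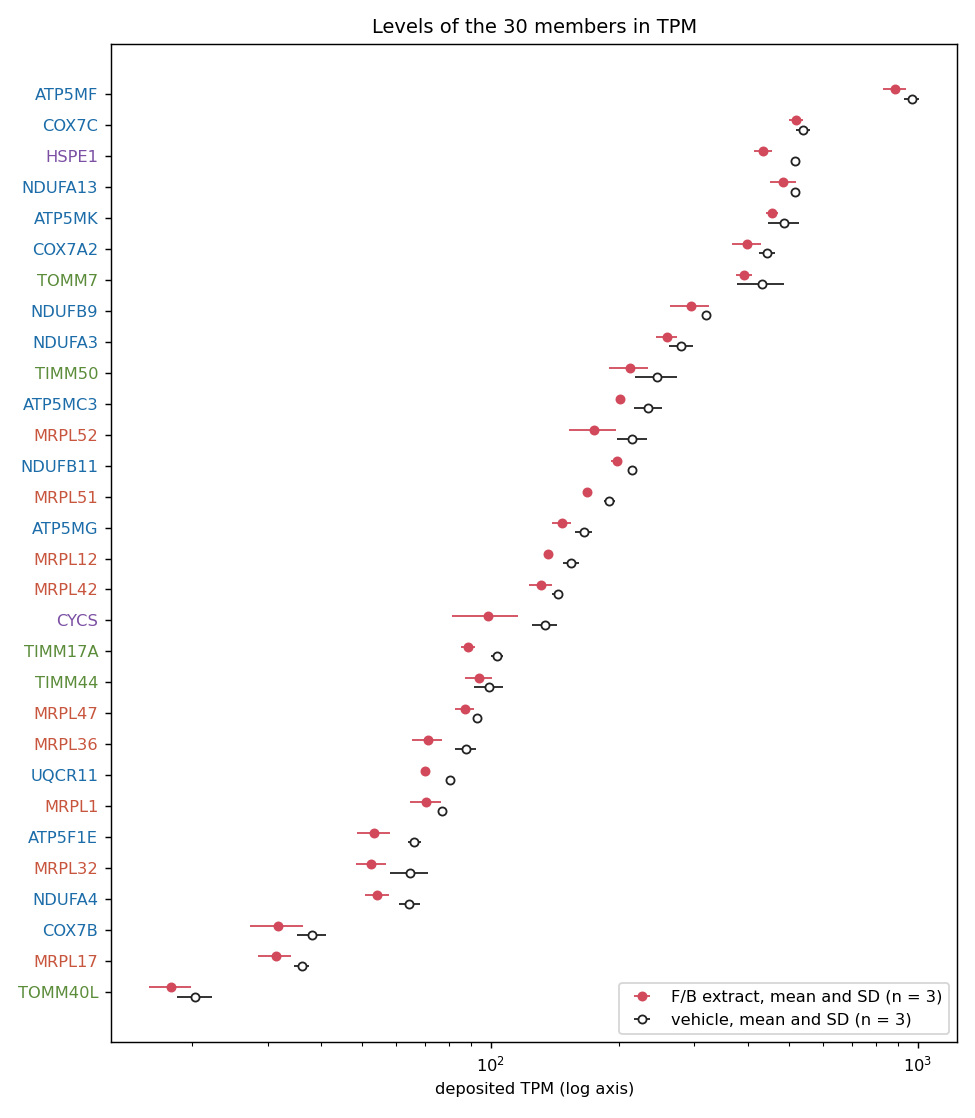
Deposited TPM of each member on a log axis, as mean and SD over 3 libraries, with filled points for extract and open points for vehicle; genes run from the highest to the lowest vehicle mean. The extract mean lies left of the vehicle mean in every row, and the difference is small beside the range of levels between genes, from about 20 to 968 TPM in vehicle.

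TPM levels of these genes rest on the transcript length that the authors' estimates used. Counts per TPM, which are proportional to that length, were 38.4 for ATP5F1E and 1.36 for ATP5MF, both genes of small proteins. ATP5F1E therefore stood at 53.3 TPM with extract and 66.3 TPM with vehicle, although it had more counts than ATP5MF. The length used also differed between groups for some genes. It was 110.8% of the vehicle value in extract libraries for CYCS, 106% for TIMM50 and 92.7% for NDUFA3 and TIMM44, and within 3% of it for 18 of 30 members. The scale of the TPM values also differed from that of the normalised counts, by 0.08 on the log2 scale over all rows. Decreases in counts and in TPM therefore differ through both. TIMM44 stood at 83.2% of the vehicle level in counts and at 95.0% in TPM. TIMM50 stood at 86.3% in both, and MRPL51, with a length at 100.7%, at 84.4% in counts and 88.7% in TPM. Counts were whole numbers, within 1e-06, in every library for 12 members and in no library for 7, among them ATP5MF, whose exons overlap those of PTCD1 and of a readthrough gene. In all, 11 members share exon bases with another gene on their strand and 13 with a gene on the other strand.

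Most members are counted on short transcripts, and over all 1099 rows the log2 fold change ran with length. The rows were ordered by counts per TPM and divided into 4 bins of 274 or 275 rows. From the bin with the shortest to that with the longest transcripts, the median log2 fold change was -0.28, -0.25, -0.18 and 0.20, and 92.0%, 69.8%, 58.5% and 38.9% of rows were lower with extract. Spearman's rho across the 1099 genes, which share libraries and are not independent, was 0.38. Of the 30 members 22 were in the first bin, where their median of -0.27 was close to that of all its rows. The next bins held 5 members with a median of -0.32, 3 members with a median of -0.37, and 0 members. The part of length in the members' decrease was not tested.

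**Figure D4:**
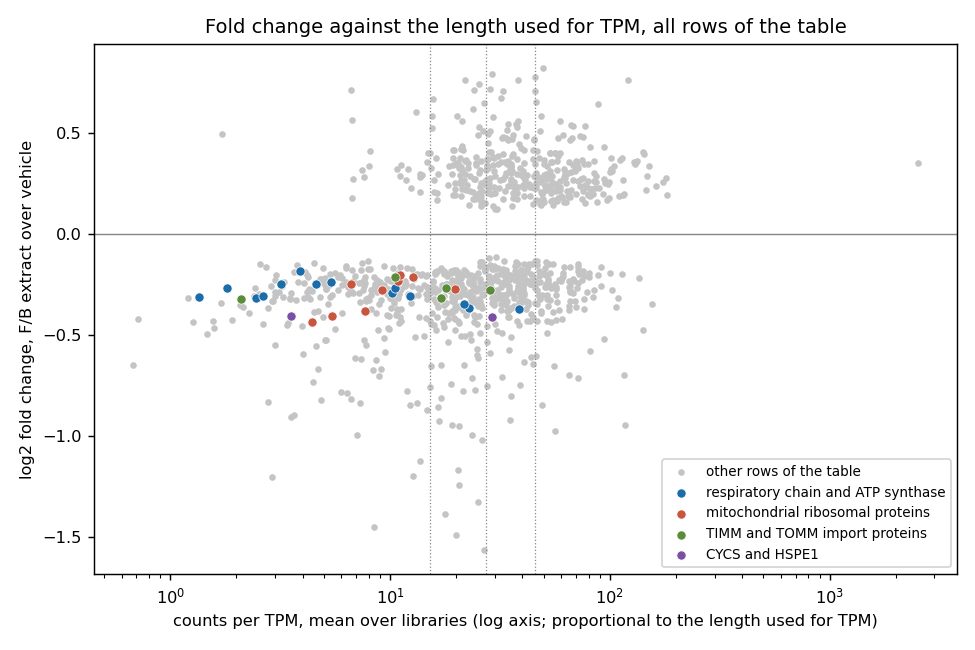
Log2 fold change, extract over vehicle, of all 1099 rows against counts per TPM on a log axis, with the members coloured by class and dotted lines at the bounds of the 4 bins. Members lie in the band of small decreases, mostly left of the first line, where 92.0% of rows are lower with extract.

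Other genes of the same system that were in the table also fell. Of 304 genes in 15 mitochondrial lists 41 were in the table, or 13.5%, beside 9.74% of all genes the authors tested, and 30 of the 41 are the members. The lists may hold genes the authors did not test, so these shares have different bases. The remaining 11 were all called lower, beside 52.6% of all rows. Their log2 fold changes ran from -0.44 to -0.19, with a median of -0.31. They too are in the table because they differed, so their calls are not independent evidence. Among the 11 were the import motor genes PAM16 at -0.44 and GRPEL1 at -0.34 (SE 0.05, edgeR adjusted p = 0.00640), and ROMO1, an inner membrane protein, at -0.43. The assembly factors UQCC1, NDUFAF2 and NDUFAF4 were at -0.23, -0.31 and -0.32 and were 3 of 5 listed from that list of 43. ATP5IF1, the inhibitor of ATP synthase, was at -0.20, and SUCLA2 of the citric acid cycle at -0.19. Of 17 regulators of mitochondrial biogenesis only PPRC1, a coactivator related to PGC-1, was listed, at -0.34 (SE 0.07, edgeR adjusted p = 0.0208).

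Coverage of the complexes was uneven. The table held 4 of 37 complex I genes, 0 of 4 of complex II, 1 of 9 of complex III, 4 of 13 of complex IV and 6 of 18 of ATP synthase. It held 9 of 49 proteins of the large mitochondrial ribosomal subunit and 0 of 29 of the small one, 2 of 12 genes of outer membrane import and 6 of 21 of inner membrane import. None of the 13 proteins encoded in mitochondrial DNA was listed. Genes absent from the table, not analysed here, had a larger p-value in the authors' comparison or were not tested in it, so nothing follows about whether they changed. In RNA from whole cultures, a lower level in every cell and a lower level in some of the cells cannot be told apart.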

How the data were processed

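The authors deposited estimated counts, of which 31.8% to 35.9% per library were not whole and which were rounded here before testing. They also deposited TPM per library, and their comparison as a ratio, a log2 fold change (vehicle over extract) and a p-value with its adjusted form, per the file headers. The submitters' processing notes give the build GRCh38.p13. No aligner, counter or annotation is stated. Columns were tied to samples by the library names in the labels.

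The number of genes the authors tested, 11289, was recovered from their p-values (largest relative error 0.00445). Size factors were fitted until recomputed fold changes matched the deposited ones (median absolute log2 difference 5.84e-05). They were 0.920, 0.959 and 0.935 for extract replicates 1 to 3 and 0.940, 1.23 and 1.05 for vehicle replicates 1 to 3. Scaling within the table would centre on genes selected as changed. edgeR 4.0.16 (R 4.3.3) was run on all 1099 rows without covariates, with Benjamini-Hochberg adjustment over 11289 genes and a filter that removed 0 rows. Standard errors are the log2 fold change over the square root of F. The spread was estimated from selected rows, so p-values may be too small. The code was tested on simulated data. DESeq2 1.42.0, limma 3.58.1, other scales and filters, a replicate block and left-out libraries were alternatives. Members, lists and tests were chosen with earlier results of these data known. Members shown by library were, per class, those with the lowest and highest log2 fold change and the highest TPM, CYCS, HSPE1 and those that missed the threshold, and up to 3 other genes per list with the lowest p were named. UQCR11, MRPL1 and TIMM17A were added after their values were seen. Gene positions are from GENCODE v29 (GRCh38).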

Additional observations from a re-analysis of the deposited data

How the results depend on the processing

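All 30 members stayed below 0 in all 18 other settings, but scales move all rows alike (by 0.08 on the TPM scale, 0.14 with totals, 0.15 with TMM, 0.17 with size factors by DESeq2) and the members were selected as lower, so this adds no support. Of 27 members called lower, 2 were called with TMM, 2 with DESeq2 size factors, 3 with totals, 9 on the TPM scale, 0 with limma on log2(TPM + 1) or log2(TPM + 0.1) (15 at an unadjusted p under 0.05 in both) and 5 with the replicate block. By class these were 0, 0, 1, 6, 0, 0 and 2 of 11 respiratory chain genes called, 0 in each of these settings of 9 ribosomal genes, and 0, 0, 0, 1, 0, 0 and 1 of 5 import genes; CYCS and HSPE1 kept both calls except with limma on TPM, where 0 were called. For the 0 counts, unadjusted p under 0.05 was reached by 7 and 6 respiratory chain genes with TMM and DESeq2 size factors and by 6 with either limma fit. It was reached by 3, 3, 5, 8, 6, 6 and 9 ribosomal genes in the order above, and by 1, 1, 3, 1 and 1 import genes with TMM, DESeq2 size factors, totals and both limma fits. The DESeq2 test called 29 members and limma-voom 28, beside 62.7% and 53.7% of all rows called lower. The member median was -0.13, -0.11, -0.15 and -0.20 on the 4 scales and -0.17 with either limma fit on TPM. Over all rows 578 were called lower and 319 higher in the reported fit. Lower calls were 87, 86, 126 and 214 on the 4 scales, 60 and 52 with limma on TPM, and 212 with the block; higher calls were 385, 387, 386 and 371 on the 4 scales, so that 18.4%, 18.2%, 24.6% and 36.6% of calls were lower against 64.4%, and 122, 117 and 83 in the other fits. Without 1 library each, between 4 and 27 members were called, and by class 1 to 14, 0 to 6 (9 at an unadjusted p under 0.05 where 0 were called), 1 to 5 and 2 genes. All rows called lower ran from 124 to 570 and higher from 50 to 286, and the member median from -0.33 to -0.26. Same-numbered extract and vehicle libraries correlated at -0.23, -0.01 and -0.03 in their deviations from group means. With 3 libraries per group these values cannot show whether the replicate numbers mark pairs. Filters changed no value. Adjustment over the table alone called all 30 lower, but it called every row of the table, 712 (64.8%) lower and 387 higher. That count was fixed by the selection of the rows and adds no support. The cause of these changes was not tested. The table is part of each library, so full depth is unknown.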
